A study of Canis lupus familiaris with 15 samples.

Results

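The genes described here are 5 chemokines, CCL2, CCL3, CCL5, CXCL8 and CXCL10, and 1 chemokine receptor, CCR3, in canine lymphoma. They were found through the RefSeq identifiers that the array assigns to its probes, which led to 10 probes: 4 for CXCL8, 2 for CXCL10 and 1 for each of the other genes. They are 6 of the 1357 genes that could be named on the array in this way. Agilent 1-colour arrays were run on 15 RNA samples, which 5 dogs with lymphoma had given. The dogs are known as MalcolmX, Jake, Rosco, Dog Y and Thai. The control tissue was skin, taken by biopsy from MalcolmX and Rosco. Tumour biopsies described as original and drug resistant came from every dog but Thai, and Thai gave 1 biopsy described as drug sensitive. After treatment with metformin, a glucose-lowering drug, MalcolmX was sampled again by fine needle aspirate. Rosco gave 6 more aspirates: after failed chemotherapy and before metformin, in remission after metformin, 3 in relapse after metformin, and a second sample described as drug resistant. A last sample of Rosco's tumour was taken after death, so that 9 of the 15 arrays are of Rosco. The labels are not uniform: by title the relapse samples had no remission, and the biopsies of Rosco and Dog Y are called resistant but also said to precede treatment. By title, too, the tumour of Thai was naive, and the chemotherapy that failed in Rosco was CHOP. The ages of the dogs are not given in the sources used here. No group holds more than 4 arrays, skin stands in for normal lymphoid tissue, and the 3 relapse aspirates measure spread within 1 dog only.

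Chemokines are small secreted proteins that bind receptors on leukocytes and make them move towards the source. CCL2 draws monocytes through CCR2 and is made by stromal cells, endothelium and macrophages. CCL3 and CCL5 draw T cells, monocytes and other cells through receptors that include CCR1, and activated T and NK cells are a source of both. CXCL10 is induced by interferon gamma and by type I interferons and draws activated T and NK cells through CXCR3. CXCL8, or interleukin 8, draws neutrophils through CXCR1 and CXCR2. CCR3 is best known from eosinophils and binds the eotaxins and CCL5, among others.

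A level below is the log2 of the processed spot signal minus the 75th percentile of that array, so that 0 is the brightness of the 75th percentile and 1 unit is a 2-fold difference. Levels are compared only within a gene. The 75th percentile ran from 367 to 1241 intensity units, on each array between 66.7% and 75.9% of probes passed the scanner software's test for signal well above background, and the lowest signal that counted as such lay between −6.86 and −5.50. In bulk samples fewer cells of a type and less RNA per cell cannot be told apart.

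A pair of samples stands apart from its label. MS4A1, which encodes the B cell protein CD20, lay between 0.38 and 3.53 on the other tumour arrays but was not well above background in the Rosco biopsy (−7.16) and in Rosco's second resistant aspirate (−6.73). CA6, a carbonic anhydrase secreted by salivary and other glands, stood at 8.59 and 8.99 on these arrays and at most at 1.45 on any other. Of 11 genes listed for gland epithelium 5 carried a name, and the log2 of their summed signal was 8.81 and 9.16 on these arrays, 5.34 in Rosco skin and between −0.19 and 1.72 elsewhere. MalcolmX skin, in turn, had MS4A1 at 0.84, against −8.04 (not well above background) in Rosco skin. The Rosco biopsy is 1 of the 4 resistant biopsies, so the comparisons that use it are given with and without it. The second resistant aspirate enters no test.

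**Figure D1:**
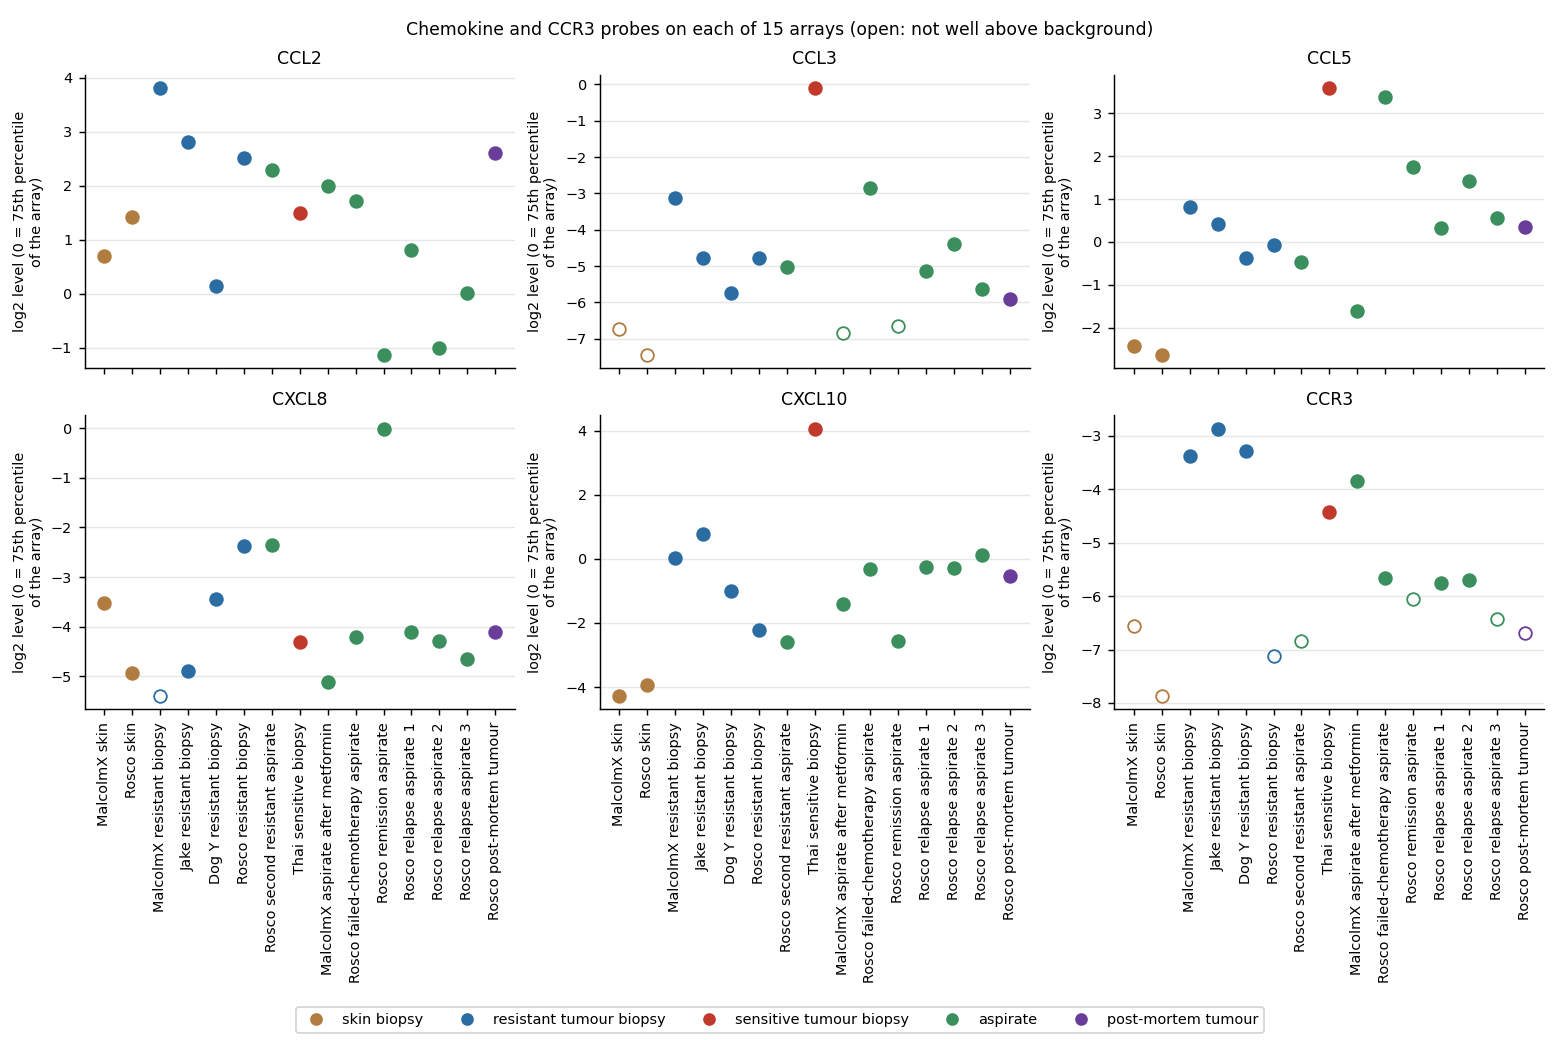
Log2 level of the 6 genes (vertical axes, 0 is the 75th percentile of the array) on each of the 15 arrays (horizontal axes), coloured by kind of sample, with open circles where the probe was not well above background. CCL3, CCL5 and CXCL10 were highest in the sensitive biopsy of Thai, CXCL8 in the remission aspirate, CCL2 in the MalcolmX biopsy and CCR3 in the Jake biopsy.

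CCL2, the monocyte attractant, was well above background on all 15 arrays. Its level was 3.81 in the MalcolmX biopsy, 2.82 in Jake, 2.52 in Rosco and 0.15 in Dog Y, against 0.69 and 1.42 in the skin of MalcolmX and Rosco. Dog Y lay below both skin samples and the other biopsies lay above them. The sensitive biopsy stood at 1.50 and the MalcolmX aspirate after metformin at 2.00, both within the range of the resistant biopsies. Among Rosco's later samples CCL2 was 1.71 after failed chemotherapy, −1.14 in remission, 0.81, −1.01 and 0.01 in relapse 1, 2 and 3, 2.61 after death and 2.29 in the second resistant aspirate. The remission aspirate and relapse 2 were the lowest of the 15 arrays.

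CCL3, made by activated T cells, NK cells and macrophages, was well above background on 11 arrays, fewer than any of the other ligands. It was not well above background in either skin sample, in the MalcolmX aspirate after metformin or in the remission aspirate. The resistant biopsies gave −3.13 (MalcolmX), −4.77 (Jake), −4.79 (Rosco) and −5.74 (Dog Y). The sensitive biopsy of Thai stood at −0.10, above every other array. The aspirate after failed chemotherapy came next with −2.86, and the relapse aspirates gave −5.14, −4.39 and −5.62, the post-mortem tumour −5.89 and the second resistant aspirate −5.01.

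CCL5 was well above background on all arrays, with its lowest levels in the skin of MalcolmX (−2.43) and Rosco (−2.63). The resistant biopsies lay close together, at 0.82 (MalcolmX), 0.43 (Jake), −0.07 (Rosco) and −0.37 (Dog Y), all above both skin samples. Thai again stood highest, at 3.59, followed by the aspirate after failed chemotherapy at 3.37. The remission aspirate gave 1.73, and the relapse aspirates gave 0.32, 1.42 and 0.56. The post-mortem tumour was at 0.35 and the second resistant aspirate at −0.47. The MalcolmX aspirate after metformin, at −1.61, was the lowest of the tumour samples.

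CXCL10, the interferon-induced ligand, had its lowest levels in the skin of MalcolmX (−4.27) and Rosco (−3.92) and was well above background on all arrays. It was 0.01 in the MalcolmX biopsy, 0.79 in Jake, −2.21 in Rosco and −0.99 in Dog Y. Thai stood at 4.06, above all others. The aspirate after failed chemotherapy gave −0.30 and the relapse aspirates gave −0.27, −0.29 and 0.11, so that these 4 arrays lay close together. The remission aspirate, at −2.57, lay below them, as did the second resistant aspirate at −2.59. The post-mortem tumour stood at −0.54 and the MalcolmX aspirate after metformin at −1.39. Its 2 probes ran together over the 15 arrays, with r = 0.999.

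CXCL8, the neutrophil attractant, was highest in the remission aspirate, at −0.01. It was −2.36 in the Rosco biopsy and −2.35 in the second resistant aspirate, the next highest arrays, which are those with the gland genes. The other resistant biopsies gave −5.39 (MalcolmX, not well above background), −4.90 (Jake) and −3.45 (Dog Y), and the skin samples −3.53 (MalcolmX) and −4.92 (Rosco). The biopsies and the skin samples therefore overlapped. The remaining tumour samples were close to each other: −4.30 in the sensitive biopsy, −5.12 in the MalcolmX aspirate, −4.20 after failed chemotherapy, −4.11, −4.30 and −4.66 in relapse and −4.10 after death.

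All 4 CXCL8 probes placed the remission aspirate first, and their correlations with each other over the 15 arrays lay between 0.903 and 0.967. They differed in how far they rose above background. The values above are those of the probe with the highest mean. A second probe stood at 0.26 in the remission aspirate, −1.01 in the Rosco biopsy, −1.54 in the second resistant aspirate and −2.19 in MalcolmX skin, with the other arrays at −2.90 or below.

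**Figure D2:**
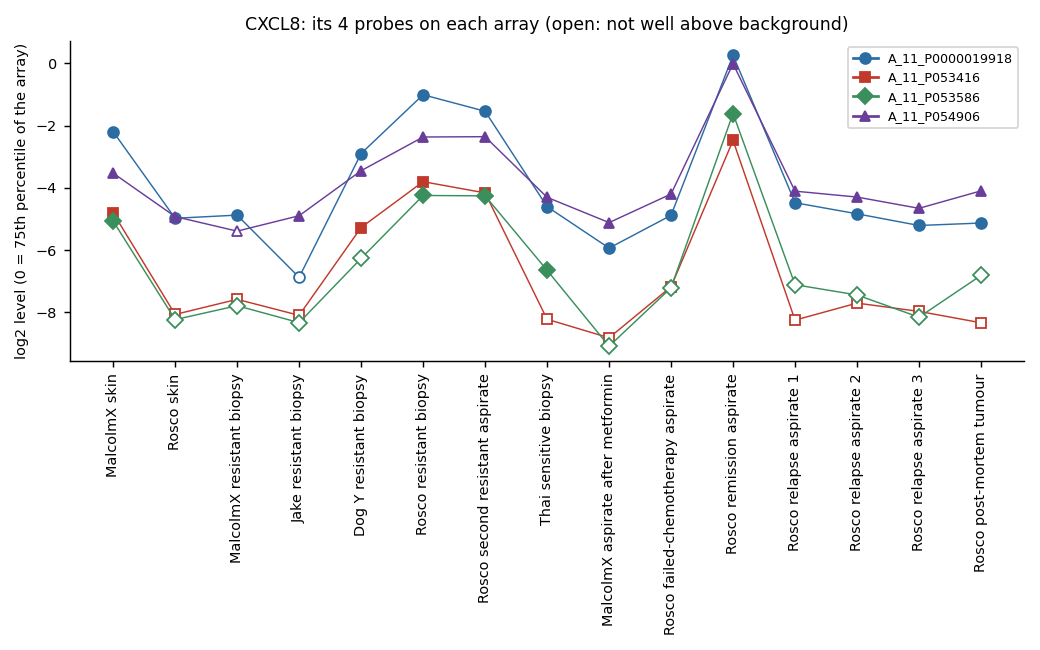
Log2 level of the 4 CXCL8 probes (vertical axis) on each array (horizontal axis), with open symbols where a probe was not well above background. Lines only join the points of a probe, since the arrays have no order. Each probe peaks in the remission aspirate, with levels from −2.47 to 0.26.

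CCR3, the only receptor of the set, was well above background on 8 arrays. It was −3.37 in the MalcolmX biopsy, −2.87 in Jake and −3.29 in Dog Y, its highest levels, but −7.11 (not well above background) in the Rosco biopsy. The MalcolmX aspirate after metformin gave −3.85 and the sensitive biopsy −4.43. In Rosco's later samples it was −5.66 after failed chemotherapy, −6.05 in remission, −5.76, −5.69 and −6.43 in relapse, −6.69 after death and −6.85 in the second resistant aspirate. Only the failed-chemotherapy aspirate, relapse 1 and relapse 2 were well above background there, and only narrowly. Both skin samples were not, at −6.55 (MalcolmX) and −7.87 (Rosco). The 5 highest levels were thus in the tumours of MalcolmX (both samples), Jake, Dog Y and Thai, above all 9 arrays of Rosco.

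The first comparison, of resistant biopsies with skin, asks which of these genes set tumour apart from control tissue. CCL5 differed by 2.73 (SE 0.43), from a mean of −2.53 (SD 0.14, n = 2) in skin to 0.21 (SD 0.53, n = 4) in the biopsies. CXCL10 differed by 3.50 (SE 0.83) and CCL3 by 2.48 (SE 0.74), the latter at least 2.54-fold higher in the biopsies. With limma's adjusted p at 0.0829 for CCL5, 0.209 for CXCL10 and 0.266 for CCL3, none passed 0.05. By the same fit 0.431% of all 23921 targets were called, 0.00836% higher and 0.422% lower, and of the 1057 named genes 1.32%. In these 3 genes every biopsy lay above both skin samples, which held for 18.1% of all targets (the opposite held for 10.4%), and CCL3 entered the test only because it was well above background in the biopsies. CCL2 differed by 1.27 (SE 0.99, limma adjusted p = 0.499) and CXCL8 by 0.20 (SE 0.94, limma adjusted p = 0.913), and in both the groups overlapped. CCR3 was not tested, because neither group was well above background throughout. The groups overlapped, since the Rosco biopsy (−7.11) lay below MalcolmX skin (−6.55). Neither of these was well above background, so no bound is given with all biopsies.

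Without the Rosco biopsy 3 of the 6 genes rose, where 6.14% of 24419 targets did and 6.65% fell. CXCL10 rose by 4.03 (SE 0.57, limma adjusted p = 0.0218) and CCL5 by 2.82 (SE 0.44, limma adjusted p = 0.0254). CCR3 was at least 6.83-fold higher (limma adjusted p = 0.0180), but neither skin sample was well above background, and it entered this test only through the 3 biopsies where it is high. With all 4 biopsies and no filter on dim targets CCR3 differed by 3.05 (SE 1.28, limma adjusted p = 0.419). Again without the Rosco biopsy, CCL3 differed by 2.54 (limma adjusted p = 0.0862), CCL2 by 1.20 and CXCL8 by −0.35. The 3 remaining biopsies all carry MS4A1 at 2.68 or more. Slides 1 and 2 each held arrays of both groups, and the fits by slide and by dog that follow include the Rosco biopsy. On slide 2 the MalcolmX biopsy stood against the skin of Rosco. CCL5 differed by 2.84 with slide as a block, by 2.43 within slide 1 and by 3.45 within slide 2, and CXCL10 by 3.65, 3.47 and 3.93. With dog as a fixed block over MalcolmX and Rosco, the dogs with both tissues, limma called 0 targets, and CCL5 differed by 2.91 (SE 0.59) and CXCL10 by 3.00 (SE 0.81).

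Partners of these genes were listed as well. Of 38 other chemokines 16 had a named probe and 10 were tested against skin, 5 higher and 5 lower with a median difference of 0.53, against 0.25 over all targets, and 0 were called. CCL4, a close relative of CCL3, differed by 2.23 (SE 0.67, limma adjusted p = 0.270), and CCL19, which guides T cells and dendritic cells in lymph nodes, by 3.29 (SE 1.15, limma adjusted p = 0.304). Of 25 other receptors 7 were named and 3 tested, 2 of them higher, with a median of 0.44 and 0 called. CXCR3, the receptor of CXCL10, differed by 0.44 (SE 0.58, limma adjusted p = 0.676).

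Genes of the cells that make or follow these ligands were read beside them. All 8 named genes of the interferon response were higher in the biopsies, with a median of 2.49 and 0 called. Without the Rosco biopsy 7 of these 8 rose, where 6.14% of 24419 targets did. Among the 7 were the antiviral gene MX1 (by 3.78, limma adjusted p = 0.0326) and OASL (by 3.72, limma adjusted p = 0.0261). Interferon gamma itself was not well above background in any of these 6 samples. Of the 10 named T and NK cell genes 5 were tested, all 5 higher with a median of 1.17 and 0 called. The summed T and NK signal lay at −2.04 and −1.69 in skin, at −1.75 in the Rosco biopsy and between −0.40 and −0.07 in the other biopsies. FASLG, the death ligand of T and NK cells, lay between −2.74 and −1.66 in the biopsies other than Rosco's, against −5.52 in MalcolmX skin, and was not well above background in Rosco skin or the Rosco biopsy. With all biopsies keratinocyte genes fell in 5 of 7 cases, where 0.422% of all targets fell. Among them were KRT1, at least 6449-fold, and DSG1, at least 128-fold. The median of the 7 was −9.07 with KRT1 and DSG1 at these bounds, and their summed signal was 7.66 and 10.32 in skin against 1.24 to 4.04 in the biopsies. The part of these shifts in cell content in the chemokine differences was not tested.

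**Figure D3:**
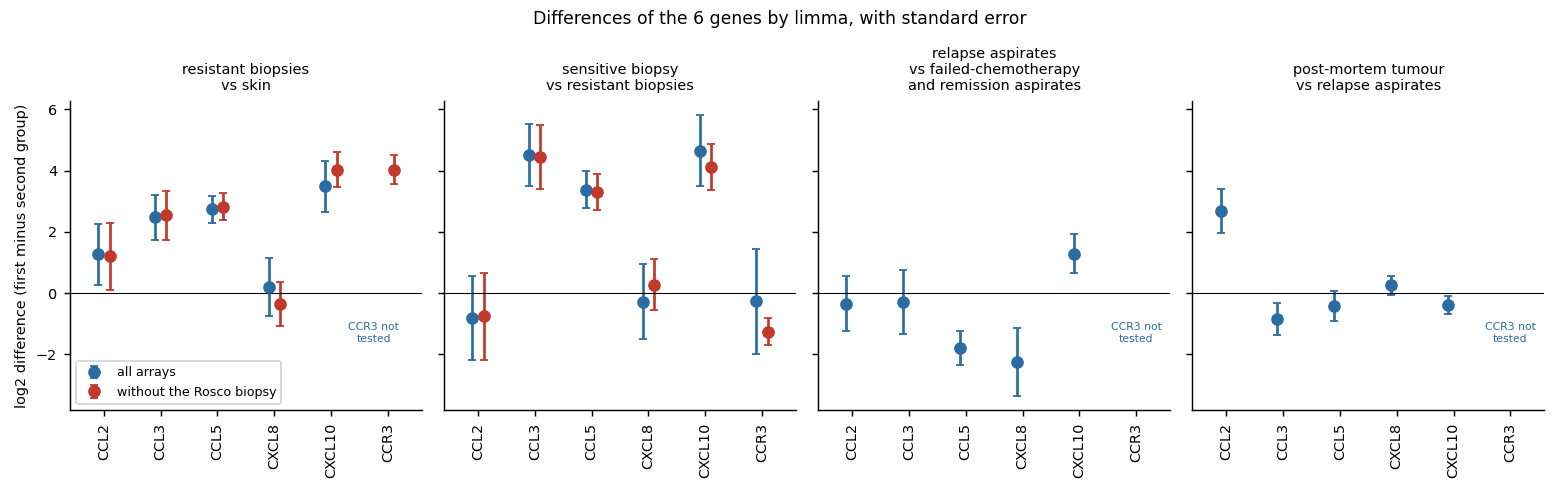
Log2 difference of the 6 genes in the 4 tested comparisons (vertical axis, first group minus second; bars are standard errors of the limma fit), with all arrays and, where it applies, without the Rosco biopsy. Against skin CXCL10 stood 3.50 higher with the Rosco biopsy and 4.03 higher without it, and CCR3 passed the filter on dim targets only without it.

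Whether these genes differ with drug response is asked by setting the sensitive biopsy of Thai against the 4 resistant biopsies. CXCL10 stood 4.66 (SE 1.17) above the mean of the resistant biopsies, CCL3 4.51 (SE 1.00) and CCL5 3.38 (SE 0.61). In these 3 of 6 genes Thai lay above every resistant biopsy, as it did for 20.5% of 26343 targets. None of the 6 passed (limma adjusted p = 1.00 for each), and 0 targets of any kind did, while 785 had an unadjusted p under 0.05 and a fit over all 15 arrays called 11. The group of 1 array takes its spread from the other group. Thai's array also lay on another slide and was scanned on another day than the 4 resistant biopsies. Drug response therefore cannot be told apart from dog, slide or scan day. CCL2 differed by −0.82 (SE 1.37), CXCL8 by −0.28 (SE 1.23) and CCR3 by −0.27 (SE 1.72), and for these Thai lay within the range of the biopsies. Without the Rosco biopsy the differences were 4.12 for CXCL10, 4.45 for CCL3, 3.29 for CCL5 and −1.26 for CCR3, where Thai then lay below the 3 others.

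The genes that go with T cells and interferon gamma stood high in the same sample. IFNG was at −3.15 in Thai and not well above background in any resistant biopsy, which makes it at least 6.49-fold higher (limma adjusted p = 0.524). CCL4 stood 4.19 (SE 0.93) higher, at 3.32 against −2.12 to 0.13. All 10 named T and NK cell genes were higher than the mean of the resistant biopsies, with a median of 2.48 (1.88 with ICOS, dim in the resistant biopsies, at its bound) against 0.08 over all targets, and the summed signal of the list was 1.62 against −1.75 to −0.07. Of these CD28, CTLA4, ICOS, KLRD1, NCR1 and FASLG were not well above background in at least 1 resistant biopsy. They entered the test only through Thai, where they are high. CD8A, of cytotoxic T cells, stood 2.65 (SE 0.46) higher, KLRD1, a receptor of NK cells, 3.88 (SE 1.34) and perforin, PRF1, 2.33 (SE 0.49). KLRD1 was not well above background in the Rosco biopsy, and without that biopsy it stood 3.14 higher. Without the Rosco biopsy all 10 were still higher, with a median of 2.37. Of the 5 named B cell genes all were higher with the Rosco biopsy (median 1.49, and 1.1 with the dim gene at its bound) and 3 of 5 without it (median 0.61). The CXCL10 receptor CXCR3 differed by 0.42 (SE 0.80) and lay within the range of the resistant biopsies. The part of T cell content in the ligand levels of this 1 dog was not tested.

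The relapse aspirates of Rosco were compared with the earlier aspirates of the same dog, taken after failed chemotherapy and in remission. CCL5 differed by −1.79 (SE 0.55), from 3.37 and 1.73 to 0.32, 1.42 and 0.56, with no overlap and a limma adjusted p of 0.0502. By this fit 33.7% of 25366 targets were called, 17.4% higher and 16.3% lower, as were 35.7% of the 1061 named genes, and 31.4% lay lower without overlap, so that a difference of this kind was common. Of 12 alternatives with a test CCL5 passed in 4 and not in 8, with limma adjusted p from 0.00658 to 0.414. It passed with quantile scaling (−1.84, limma adjusted p = 0.0425), with a normexp background correction (−1.72, limma adjusted p = 0.00658), with the stricter filter on dim targets (−1.79, limma adjusted p = 0.0408) and without relapse 2 (−2.12, limma adjusted p = 0.0392). Among the others were the fit over all 15 arrays (limma adjusted p = 0.104), no filter (0.108) and slide as a block (0.0735). Within slide 3, which held the failed-chemotherapy aspirate and relapse 1, the difference was −3.06, and within slide 4, with the remission aspirate, relapse 2 and relapse 3, it was −0.75.

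CXCL8 differed by −2.25 (SE 1.12, limma adjusted p = 0.176) and the groups overlapped, since only the remission aspirate was high. Within slide 4, which holds 1 remission aspirate against relapse 2 and 3, the difference was −4.47, while the slide 3 pair differed by 0.09. CXCL10 differed by 1.29 (SE 0.63, limma adjusted p = 0.168). On the probe used all 3 relapse aspirates lay above both earlier ones, as did 28.9% of all targets. On the second probe the groups overlapped, with −0.36 after failed chemotherapy against −0.43 and −0.45 in relapse 1 and 2. Within slide 4 CXCL10 differed on the probe used by 2.48, again against the 1 remission aspirate, and within slide 3 by 0.04. In both genes the remission aspirate stood apart and the failed-chemotherapy aspirate was close to relapse 1. CCL2 (−0.35, SE 0.90) and CCL3 (−0.29, SE 1.06) overlapped between the groups, and CCR3 was too dim to be tested.

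Partners of these genes were called about as often as other targets in this comparison, of which 33.7% were called. CCL4 fell by 2.15 (SE 0.38, limma adjusted p = 0.00825) and CCL19 by 1.36 (SE 0.26, limma adjusted p = 0.0104), while CCL20, which draws CCR6-bearing lymphocytes, rose by 1.14 (SE 0.32, limma adjusted p = 0.0369). That makes 3 of 10 tested chemokines, with a median of −0.30 against −0.08 over all targets. Among 6 tested receptors 2 fell and none rose, with a median of −0.83. CXCR3 fell by 1.74 (SE 0.29, limma adjusted p = 0.00658) and CCR9, a gut-homing receptor, by 0.87 (SE 0.20, limma adjusted p = 0.0190).

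T cell genes fell in the same comparison as CCL4 and CXCR3. Of 10 named T and NK cell genes 8 fell and none rose, with a median of −2.74, where 16.3% of all targets fell and 17.4% rose. CD8A fell by 6.42 (SE 0.33, limma adjusted p = 0.00024) and the costimulatory receptor CD28 by 5.35 (SE 0.30, limma adjusted p = 0.000305). The summed signal of the list was 3.98 and 4.10 before and −0.15 to 0.24 in relapse. MS4A1 rose by 1.70 (SE 0.22, limma adjusted p = 0.00278), while 3 of the 5 named B cell genes fell, among them CD38 by 4.62 and SLAMF1 by 5.19, which T cells also express. Interferon response genes went both ways: MX1 rose by 3.59 and OAS2 by 2.42, while OAS3 fell by 1.15 and TAP1, a peptide transporter, by 0.83, and the median of the 8 was 0.22. CXCL10 was lower in the remission aspirate than in the others of this comparison, while CXCR3 (0.22) had there its highest level of the 15 arrays. CXCR3 was nearly as high after failed chemotherapy (0.16), where CXCL10 was at −0.30. The part of T cell content in the CCL5 difference was not tested.

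**Figure D4:**
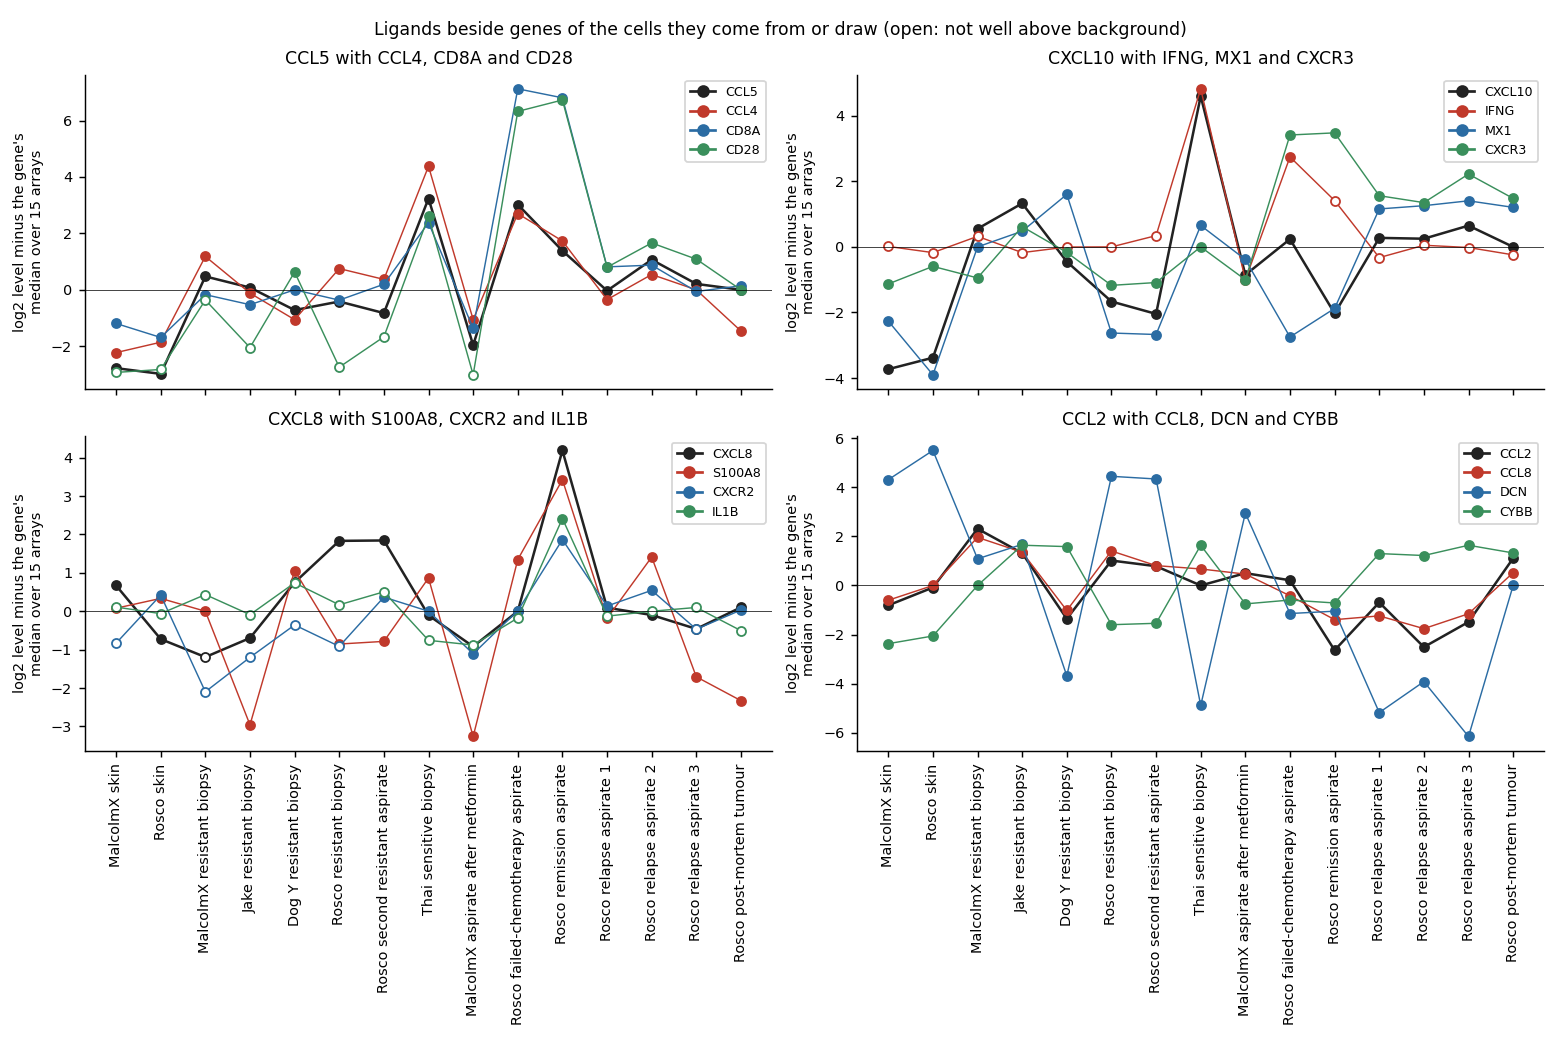
CCL5, CXCL10, CXCL8 and CCL2 beside genes of the cells they come from or draw, as the log2 level minus the median of that gene over 15 arrays (vertical axes) on each array (horizontal axes). Lines only join the points of a gene, and open circles were not well above background. CCL4 follows CCL5 (r = 0.899) and CCL8 follows CCL2 (r = 0.936). CXCR3 is high in the remission aspirate, where CXCL10 is low, and also after failed chemotherapy, where CXCL10 is not.

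The post-mortem tumour was set against the relapse aspirates to ask what differed after death. CCL2 stood 2.67 (SE 0.72) higher, at 2.61 against 0.81, −1.01 and 0.01, with a limma adjusted p of 0.236. It was 1.80 higher than relapse 1 on the same slide. It lay above all relapse aspirates, as did 36.8% of 27116 targets, and 0 targets were called, with 4128 at an unadjusted p under 0.05. With the normexp correction, which called 390 targets, CCL2 rose by 2.46 (limma adjusted p = 0.0145). CXCL8 (0.26, SE 0.31) lay just above the relapse aspirates on the probe used, at −4.10 against at most −4.11. A second CXCL8 probe put it at −5.13, within their range of −5.21 to −4.48, and the others were not well above background in these samples. CCL3 (−0.84, SE 0.52) and CXCL10 (−0.39, SE 0.28) lay below the relapse aspirates, as did 29.3% of targets. None of these genes passed. CCL5 (−0.41, SE 0.49) lay within their range and CCR3 was not well above background.

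Stromal genes were higher in the same sample. All 7 named fibroblast and endothelial genes stood higher, with a median of 3.34 against 0.06 over all targets and 0 called, among them the collagen COL1A1 (4.10, SE 0.41, limma adjusted p = 0.0550) and the endothelial receptor KDR (3.34, SE 0.60, limma adjusted p = 0.118). Their summed signal was 6.76, against 4.29 to 5.05 in relapse. Of 10 tested chemokines 9 were higher, with a median of 1.11 and 0 called. CCL8, a monocyte attractant like CCL2, stood 1.91 (SE 0.34, limma adjusted p = 0.115) higher and CCL19 3.14 (SE 0.32, limma adjusted p = 0.0550). The label of the post-mortem sample says only that it was retrieved after death, not how it was taken. Any difference in sampling from the aspirates cannot be told apart from death.

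Pairs of single samples from the same dog were compared without a test. In MalcolmX the aspirate after metformin was lower than the earlier biopsy in 4 of the 5 ligands. CCL3 was at least 13.1-fold lower, CCL5 5.41-fold, CCL2 3.51-fold and CXCL10 2.65-fold, where 7.6% of 23183 targets were at least 2-fold lower and 1.47% higher. CCR3 was 1.39-fold lower. The CXCL8 probes disagreed: the probe used was not well above background in the biopsy and at least 1.21-fold higher in the aspirate, another differed by −1.06 on the log2 scale, and 2 were dim in both samples. MS4A1 was alike in both (3.21 and 3.18). COL1A1 was 8.32-fold lower, but the fibroblast gene DCN was higher (4.98 in the aspirate, 3.12 in the biopsy). Of 7 fibroblast and endothelial genes 5 were lower, 3 of them at least 2-fold. The other 2 were higher, 1 of them at least 2-fold. The neutrophil genes S100A8 and CAMP were 9.59-fold and 18.5-fold lower, and 5 of 6 neutrophil genes were lower. Of 8 T and NK cell genes well above background in at least 1 of these samples 6 were lower, 3 of them at least 2-fold: CTLA4, an inhibitory receptor of T cells (at least 16.2-fold), KLRD1 (3.60-fold) and CD8A (2.29-fold). FASLG and CXCR3 differed by at most 0.06 on the log2 scale. Treatment and the change from biopsy to aspirate cannot be told apart.

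The remission aspirate of Rosco was set against the aspirate taken after failed chemotherapy, before metformin. CXCL8 was 4.19 higher on the log2 scale, and a second probe measured in both gave 5.15. The 2 others were dim in the earlier aspirate and at least 12.5-fold and 22.7-fold higher, where 3.04% of 24807 targets were at least 2-fold higher. The other 4 ligands went the opposite way. CCL3 was at least 9.04-fold lower, CCL2 7.22-fold, CXCL10 4.82-fold and CCL5 3.12-fold, where 1.48% of targets were at least 2-fold lower. All 6 named neutrophil genes were higher with CXCL8, 2 of them at least 2-fold, and of 6 monocyte and macrophage genes 4 were higher and 2 lower. S100A8, a calcium-binding protein abundant in neutrophils, stood at 4.32, the highest of the 15 arrays, and 2.08 above the earlier aspirate. CXCR2, a receptor of CXCL8, was 1.85 higher and FCGR1A, a high-affinity antibody receptor of phagocytes, 2.62 higher, while CYBB differed by −0.12 and CD86, a costimulatory ligand, by −0.49. IL1B, an inducer of CXCL8, was well above background only in the remission aspirate (−5.74). The summed signal of the 6 named neutrophil genes was 4.58, against 2.87 before. CD8A (2.89 and 3.21), PRF1 (−1.87 and −1.78) and COL1A1 (0.21 and 0.29) were close in these aspirates. The arrays lay on different slides, and the part of neutrophil content in the CXCL8 level was not tested.

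Rosco's first biopsy and second resistant aspirate, both rich in gland genes, differed by at most 0.41 on the log2 scale in all 6 genes on the probes used. A second CXCL8 probe differed by −0.53, and CCR3 was not well above background in either sample. Between these samples 7.9% of targets were at least 2-fold higher in the aspirate and 0.552% were lower. In the pairs of biopsy and skin, CXCL8 was lower in the tumour of MalcolmX (−1.86) and higher in that of Rosco (2.56). The probe used was not well above background in the MalcolmX biopsy, at least 3.64-fold below skin, the 1 probe measured in both gave −2.68, and the others were at least 1.62-fold and 1.35-fold lower. In Rosco the 2 probes measured in both gave 2.56 and 3.97, and the others, dim in skin, were at least 3.24-fold and 4.40-fold higher. CCL5 was higher in the tumour in both dogs, by 3.25 and 2.56, CXCL10 by 4.28 and 1.71, and CCL2 by 3.12 and 1.1. In the pair of MalcolmX 22.5% of targets were at least 2-fold higher in the tumour and 12.8% lower, and in that of Rosco 12.8% were higher and 14.1% lower.

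The ligands of CCR3 differed in where they were seen. The eotaxin CCL11 had no named probe and could not be read. Of the other eotaxins CCL24 was well above background on 8 arrays, at most at −3.65 in Rosco skin, and CCL26 on none. CCL7 was on none either, and CCL13 was on 4 arrays, Rosco skin (−3.91), the Rosco biopsy (−4.88), the second resistant aspirate (−5.33) and Thai (−5.41). CCL28, a mucosal chemokine that also binds CCR3, was well above background on 3 arrays, at 3.53 in the Rosco biopsy, 2.86 in the second resistant aspirate and −4.51 in Jake. CCL5 and CCL8, which bind CCR3 among other receptors, were well above background on all. IL5, the cytokine that drives eosinophil growth, was at −3.03 in the MalcolmX biopsy, −2.44 in Jake and −3.55 in Dog Y, and at −4.86 in the Rosco biopsy. Levels of IL5 close to that in Dog Y were also seen where CCR3 was not well above background. They were −3.54 in the second resistant aspirate, −3.59 in relapse 3 and −3.63 in MalcolmX skin. Of 20 genes listed for eosinophils, basophils and mast cells 5 were named, and these are mainly mast cell genes. Their summed signal was −0.14, −1.57 and −1.63 in the MalcolmX, Jake and Dog Y biopsies, against −0.51 in the Rosco biopsy, so it did not order the samples as CCR3 did. Among these biopsies CCR1, the neighbour receptor that binds CCL3 and CCL5, came closer to that order. It was −3.25 in MalcolmX, −1.88 in Jake, −4.94 in Dog Y and not well above background in the Rosco biopsy. The second resistant aspirate, where CCR3 was not well above background, had CCR1 at −4.94 as well.

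Over the 15 arrays, 9 of them of Rosco and therefore not independent, the profile of each gene was set beside those of 794 other named genes that were bright and variable enough. CCL2 ran most closely with CCL8 (r = 0.936), then with clusterin, CLU (r = 0.780), and the adhesion gene CDH2 (r = 0.738). CCL3 was most like CCL4 (r = 0.849), CEACAM23 (r = 0.801) and LOC480600 (r = 0.759). CCL5 was also most like CCL4 (r = 0.899), followed by LOC480600 (r = 0.877) and the transcription factor GFI1 (r = 0.853). CXCL10 ran with CEACAM23 (r = 0.909) and with the lysosomal proteases CTSC (r = 0.893) and CTSS (r = 0.867). CXCL8 had weaker neighbours, the glycosyltransferase gene GBGT1 (r = 0.786), the chemokine CX3CL1 (r = 0.761) and FCGR1A (r = 0.740). CCR3 was most like GSTA4 (r = 0.901), CCR1 (r = 0.824) and the serotonin receptor HTR1D (r = 0.812). Among the 6 genes themselves CCL3, CCL5 and CXCL10 formed a group with r between 0.747 and 0.812, and CXCL8 had r of −0.42 with CCL2 and 0.11 with CCL5.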

How the data were processed

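The samples were read as single-colour Cy3 arrays, which lay on 4 slides and were scanned on 2 days. The authors extracted spot intensity values with Agilent Feature Extraction 11.0.1.1, per the file headers, with background subtraction and a spatial correction within an array but no scaling between arrays. The series table deposited by the authors holds linear intensity values, median spot minus median background (678300 of 678300 cells matched the scanner files within 0.01). Other deposited columns are flags per spot, such as signal well above background. For each array, log2 intensity minus its own 75th percentile was computed. RefSeq identifiers gave names to 2186 of 43603 probes (5.01%) through a RefSeq gene table of another assembly than the array's, so no positions are given. Of several probes of a target the one with the highest mean was used. Between 2 and 50 outlier spots per array were left out.

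A target was tested where all arrays of 1 or more groups passed the background flag, with limma 3.58.1 in R 4.3.3 (lmFit and eBayes, two-sided). P-values were adjusted by the Benjamini-Hochberg method across every tested target, with a threshold of 0.05, and "rose" and "fell" refer to this. Groups came from the labels, and SE is that of the fit. An "at least" fold replaces a signal of the dimmer group by the lowest signal well above background on that array where that is higher. Pairs of arrays were not tested. The fit was tested on simulated data. Alternatives were quantile scaling, normexp (offset 50) on median signals, the deposited table, other filters, probe means, 1 fit over all arrays, slide and dog as blocks, and leaving out each replicate. With so few arrays precision is low. In the relapse and post-mortem comparisons all arrays are of Rosco, so p-values there measure spread within that dog only. In the comparisons of resistant biopsies with skin and with the sensitive biopsy, each group holds at most 1 array per dog. The fit over all arrays mixes spread within and between dogs. The genes and lists were chosen with earlier results of these data known. List genes are named where they passed the test or are partners of the 6 genes, and other single genes named beside them were chosen after their values were seen. A listed gene is not reported here.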

Additional observations from a re-analysis of the deposited data

Results flagged for a closer look

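In the 4 resistant biopsies 53 genes were examined for a single sample far from the others, and 7 had one, each time the Rosco biopsy. Chance gives this for about 1 group in 20. CCR3 stood at −7.11 there (not well above background), against −3.37 to −2.87 in the other biopsies. The lymphotoxin gene LTB (−2.53 against 5.52 to 6.17), the B cell receptor CD40 (−0.43 against 4.48 to 5.10), the pattern receptor TLR1 (−1.68 against 2.08 to 2.81) and the peptide transporter TAP1 (3.16 against 6.16 to 6.41) were also low. CCL27, a skin chemokine, was −0.14 against 0.36 to 0.46. CCL13 was higher, at −4.88 against −8.28 to −7.76 in the other biopsies, where it was not well above background.

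CXCL8 differed between tumour and skin in opposite directions in the dogs that gave both, by −1.86 in MalcolmX and 2.56 in Rosco. All 4 probes gave these signs. The MalcolmX biopsy was not well above background, so its value stands for a level at least 3.64-fold lower, and the difference between the dogs was not tested.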

How the results depend on the processing

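CCL5 and CXCL10 kept their directions against skin, in the sensitive biopsy and in relapse under every alternative run, and CCL3 kept its against skin and in the sensitive biopsy. With the main setting 103 targets were called against skin, 0 in the sensitive biopsy, 8551 in relapse and 0 after death. Leaving out 1 replicate gave 5 to 3123, 0 to 0, 5640 to 9758 and 0 to 431. Against skin normexp called 8, the deposited values 57, no filter 65, the strict filter 6, 1 fit over all arrays 648, slide as a block 32, slide 1 alone 40 and dog as a fixed block 0. That single fit called 11 in the sensitive biopsy and 1122 in relapse, and slide 4 alone 2497 in relapse. After death normexp called 390 and probe means 14. In the single fit CCL5 (adjusted p = 0.0180) and CXCL10 (adjusted p = 0.0457) passed against skin by limma.

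The following values had the opposite sign to the main value. Against skin CXCL8 gave −0.21 with the slide block, −0.043 within slide 1, −0.47 within slide 2, and −0.50 to 0.90 when 1 replicate was left out (−0.35 without the Rosco biopsy, −0.50 without Rosco skin). In the sensitive biopsy the values over left-out replicates were −0.73 to 0.27 for CXCL8 (0.27 without the Rosco biopsy) and −1.26 to 0.16 for CCR3 (0.16 without Jake, 0.02 without Dog Y). In relapse CCL2 gave −0.78 to 0.12 over left-out replicates (0.12 without relapse 2) and 0.64 within slide 4, CCL3 0.016 with quantile scaling and 1.65 within slide 4, and CXCL8 0.092 within slide 3. After death CCL3 gave 0.082 with normexp, CCL5 0.033 with the slide block and within slide 3, and CXCL8 −0.031 with quantile scaling. For the second resistant aspirate against the first biopsy quantile scaling gave −0.28 for CXCL8 and −0.24 for CCR3, and normexp 0.92 for CCL3 and 0.056 for CXCL10. Normexp gave 0.26 for CCR3 in remission, −1.79 for CXCL8 in MalcolmX after metformin and 0.94 for CXCL8 in the MalcolmX biopsy against skin. On that biopsy the lowest normexp level was −1.97, against −4.67 to −2.80 on the other arrays. The cause of these changes was not tested. Scan day was not run as a block. The sensitive biopsy and the resistant biopsies were scanned on different days, and every other tested comparison lay within 1 day.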

Other observations

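Of 26 genes listed as inducers of chemokine genes or as parts of their signal chain 16 were named. Against skin 10 were tested, 9 of them higher, with a median difference of 1.31 and 0 called. In relapse, where 33.7% of all targets were called, 5 of 11 changed by limma. The receptor CD40 rose by 2.59 (adjusted p = 0.00187), from 2.07 and 1.51 to 4.64, 4.56 and 3.95, and TLR1, which senses bacterial lipoproteins, rose by 2.36 and IL5 by 1.1. The CD40 ligand, CD40LG, which activated T cells carry, fell by 4.95 (adjusted p = 0.00240), from 3.17 and 3.22 to −0.84 or lower in the 3 relapse aspirates, and LTB fell by 1.26. CD40 and its ligand thus moved in opposite directions in these aspirates.

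Among 6 named genes of monocytes and macrophages, the cells that CCL2 draws, 5 were higher in the biopsies than in skin (median 0.78) and 0 were called. CYBB, an oxidase subunit of phagocytes that B cells also express, rose by 3.29 without the Rosco biopsy (limma adjusted p = 0.0315) and by 2.04 in relapse (limma adjusted p = 0.00125), where it was the single gene of this list that changed. Of the 6 neutrophil genes 3 changed in relapse, where 33.7% of all targets did: MMP9 fell by 2.44 and CAMP by 2.90, and ELANE rose by 0.93.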
